A study of Rattus norvegicus with 2 samples.

Results

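The BMP and TGF-beta family was followed through 10 genes in rat bladder tumors, comprising 8 ligands of the BMP and TGF-beta groups (Bmp2, Bmp4, Bmp5, Bmp7, Bmp8b, Tgfb1, Tgfb2 and Tgfb3), 1 activin subunit (Inhba) and 1 secreted antagonist (Grem1). They were found by gene symbol among 22093 genes with an annotated probe set, and all 10 had exactly 1 probe set. Both arrays held total RNA of male F344 rats, labelled as 114 weeks old. The Control array was a pool of 5 bladders from rats on 0 ppm dimethylarsinic acid (DMA, a methylated arsenic compound) in the drinking water. The DMA-tumor array was a pool of 6 bladder carcinomas from rats that drank 200 ppm DMA from an age of 10 weeks for 2 years. The labels call the Control material epithelium, the study's methods call it bladder tissue and mention fewer tumors than the series design, from which the pool sizes here are taken. The tumors were not examined by histology. Each group was 1 pooled array, so the values below carry no replicate error, no test was possible, and the number of arrays limits their precision. The 10 genes were picked with their values on these arrays already known, so the values are a description.

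Ligands of this family are secreted dimers that bind paired type I and type II serine/threonine kinase receptors. BMPs act through SMAD1, SMAD5 and SMAD9, and TGF-betas and activins through SMAD2 and SMAD3, with SMAD4 as the common partner. Secreted antagonists such as gremlin, noggin and chordin hold BMPs away from their receptors, and TGF-betas are stored in the matrix in a latent form that has to be activated. In the mouse bladder, BMPs made by the stroma act on the urothelium and favour its differentiation, while TGF-beta restrains growth in many epithelia.

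The family split between the arrays. Of the 10 genes, 3 had a signal at least 2-fold higher in the DMA-tumor array (Bmp8b, Tgfb1 and Tgfb2), 3 had one at least 2-fold lower (Bmp2, Bmp4 and Bmp5), and Bmp7 and Tgfb3 differed by less. Inhba and Grem1 were below a signal of 100 on both arrays, the level under which the study's methods treated a signal as low. Where 1 of the 2 signals was below 100 it was set to 100 for the fold, which is then written as at least that size. The other 8 genes belonged to the 12074 genes that reached 100 on 1 or both arrays, called kept genes here. Among all kept genes, 8.87% were at least 2-fold higher and 10.5% at least 2-fold lower, and the median log2 difference (DMA-tumor minus Control) was -0.08. When a Z-score of 2 or beyond over all kept genes was required as well, Bmp8b remained among the higher genes and Bmp2 and Bmp5 among the lower ones. By both criteria 2.53% of kept genes were higher and 2.37% were lower.

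**Figure D1:**
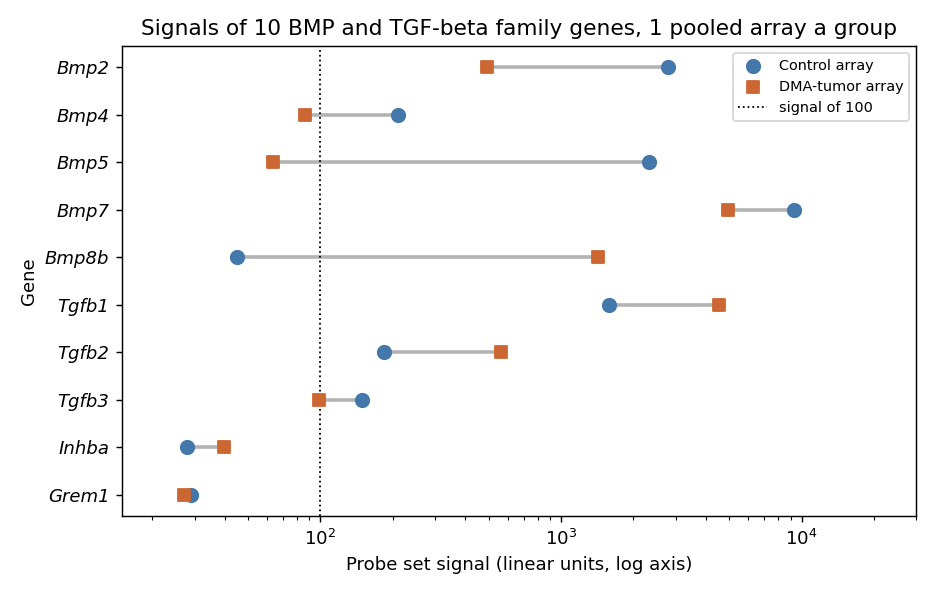
Probe set signals (linear units on a log axis) of the 10 genes in the Control array (circles) and the DMA-tumor array (squares), 1 pooled array a group, with a dotted line at a signal of 100. Bmp2, Bmp4 and Bmp5 lie further left in the tumors, Bmp8b, Tgfb1 and Tgfb2 further right, and Inhba and Grem1 stay left of the dotted line on both arrays.

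The study was about promoter methylation, which acts on cytosines in CpG dinucleotides, so the promoter sequences of the genes that differed most are shown with each CpG in capitals. Promoter windows of 8 of the 10 genes were found in the RefSeq table of the GRCr8 assembly (250 bases before to 50 after the transcript start), and none was found for Bmp2 and Bmp7. The bases upstream of the start are printed 5′ to 3′ on the strand of the gene for both lower genes with a window and for the 2 higher genes with the largest differences. They lie at chr8:85397379-85397628 (plus strand, Bmp5), chr15:22101934-22102183 (minus strand, Bmp4), chr5:140670867-140671116 (plus strand, Bmp8b, the first of 3 listed starts) and chr13:100792686-100792935 (minus strand, Tgfb2).
Bmp5: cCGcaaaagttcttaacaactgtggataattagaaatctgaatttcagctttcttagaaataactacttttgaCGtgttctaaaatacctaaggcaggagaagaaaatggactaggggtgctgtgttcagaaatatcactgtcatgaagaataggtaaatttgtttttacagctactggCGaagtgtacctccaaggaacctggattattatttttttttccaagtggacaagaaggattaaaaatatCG
Bmp4: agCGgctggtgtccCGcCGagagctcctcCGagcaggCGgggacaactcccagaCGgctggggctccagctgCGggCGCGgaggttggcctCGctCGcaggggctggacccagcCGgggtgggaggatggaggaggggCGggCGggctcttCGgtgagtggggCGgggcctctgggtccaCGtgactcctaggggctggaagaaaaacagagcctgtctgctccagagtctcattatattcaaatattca
Bmp8b: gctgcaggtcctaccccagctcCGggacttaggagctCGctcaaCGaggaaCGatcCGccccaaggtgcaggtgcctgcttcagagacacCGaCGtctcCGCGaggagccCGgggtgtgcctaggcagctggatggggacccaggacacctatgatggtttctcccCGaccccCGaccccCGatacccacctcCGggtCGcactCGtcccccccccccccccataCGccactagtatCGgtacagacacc
Tgfb2: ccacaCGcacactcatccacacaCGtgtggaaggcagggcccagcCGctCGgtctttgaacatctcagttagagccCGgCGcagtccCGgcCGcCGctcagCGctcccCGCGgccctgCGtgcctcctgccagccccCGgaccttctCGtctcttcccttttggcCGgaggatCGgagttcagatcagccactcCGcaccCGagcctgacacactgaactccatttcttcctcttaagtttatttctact
The printed upstream stretches held 4 CpGs in Bmp5, 17 in Bmp4, 18 in Bmp8b and 19 in Tgfb2. Of these 2 lower genes, the stretch of Bmp5 holds fewer CpGs than that of Bmp4 and is rich in A and T.

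Over the full window of 300 bases, CpG counts of the 8 genes ran from 3 (Inhba) and 5 (Bmp5) through 9 (Tgfb3), 11 (Tgfb1), 19 (Tgfb2), 22 (Bmp4) and 23 (Bmp8b) to 28 (Grem1). The median of 27457 windows, 1 for each gene in the table, was 7, with quartiles of 3 and 20. Of the lower genes, Bmp5 stood below that median and Bmp4 above it, and the 3 higher genes stood above it. Of 4 motifs searched on both strands, GGCGCC, the core of a BMP response element, was found only in the window of Grem1, among 11.8% of all windows. The SMAD palindrome GTCTAGAC (0.215% of all windows), the AP-1 pattern TGANTCA (7.33%) and the antioxidant response pattern TGACNNNGC (12.2%) were in 0 of the 8 windows. A match or its absence here describes the letters of these windows only, and methylation was not analysed here.

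**Figure D2:**
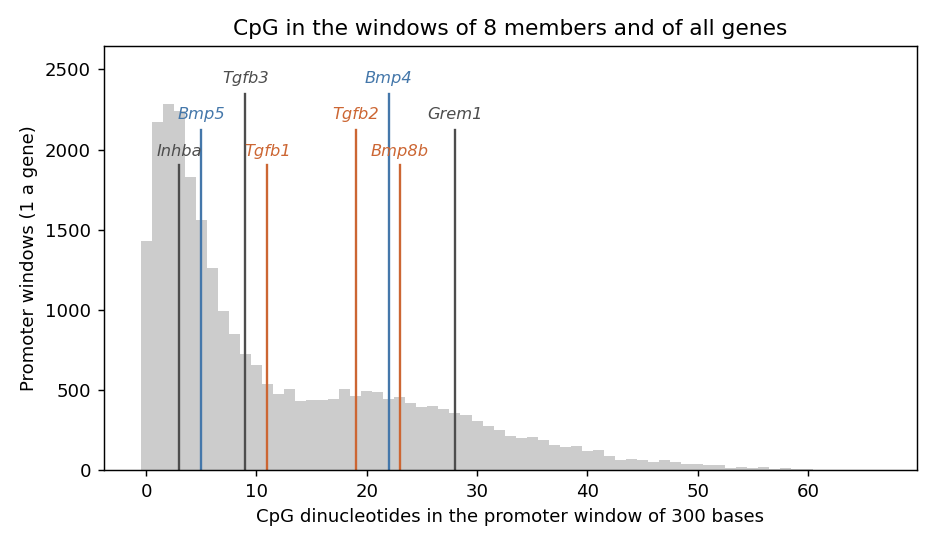
CpG dinucleotides in promoter windows of 300 bases, as a histogram of 27457 genes (grey) with vertical lines for 8 of the 10 genes, blue for those at least 2-fold lower in the tumors, orange for those at least 2-fold higher and dark grey for the others. Both lower genes with a window are marked in blue, Bmp5 at 5 and Bmp4 at 22.

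Bmp5, a ligand known from skeletal development in the mouse, gave 2331 (Control) and 63.5 (DMA-tumor), at least 23.3-fold lower (log2 difference -5.20 on the measured signals). It ranked 21 from the lowest among the 12074 kept genes. Bmp2, a ligand best known for inducing bone, gave 2796 and 495, which was 5.65-fold lower (log2 difference -2.50, rank 201 from the lowest). Both signals of Bmp2 were above 100, whereas the place of Bmp5 rests on a tumor signal below it. Bmp4, the closest relative of Bmp2 and a mesenchymal signal in bladder development in the mouse, gave 211 and 86.1, at least 2.11-fold lower (log2 difference -1.29). Its Z-score was -1.20, so Bmp4 met the fold criterion but not the Z-score. Bmp7, which takes part in kidney development, gave 9290 and 4950, which was 1.88-fold lower (log2 difference -0.91). This was just inside the 2-fold limit, and Bmp7 passed it, with -1.20 and -1.14, once a signal-dependent loess trend was removed or the arrays were quantile normalized. These 4 ligands all had negative differences, by very different amounts.

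Bmp8b was the one BMP ligand of the 10 genes with a positive difference. The gene, known in the mouse from germ cell formation and brown fat, gave 45.2 (Control) and 1429 (DMA-tumor), at least 14.3-fold higher. Its log2 difference on the measured signals was 4.98, rank 29 from the highest among kept genes. The size of the fold depends on the low Control signal, since the log2 difference was 3.84 with that signal raised to 100. Bmp8a, its close paralog on the same chromosome, gave 33.6 and 60.8 and so stayed below 100 on both arrays. Whether probes of one gene also detect transcripts of the other was not tested.

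**Figure D3:**
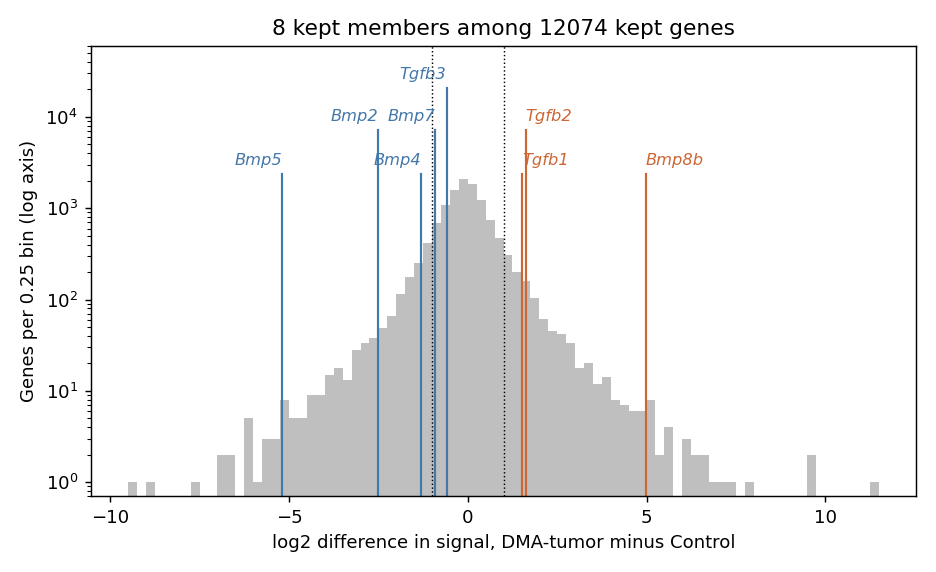
Histogram of the log2 difference (DMA-tumor minus Control, measured signals) of 12074 kept genes in bins of 0.25 on a log count axis, with lines for the 8 kept genes of the family and dotted lines at a 2-fold difference. Bmp5, at -5.20, and Bmp8b, at 4.98, lie in opposite tails, while Tgfb1 and Tgfb2 lie close together at 1.51 and 1.62.

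The 3 TGF-beta genes did not move together. Tgfb1, the isoform made by most cells and by platelets and leukocytes, gave signals of 1587 and 4528, which was 2.85-fold higher in the tumors (log2 difference 1.51). Tgfb2, an isoform with roles in development and epithelia, gave 183 and 561, which was 3.07-fold higher (log2 difference 1.62). Both had signals above 100 on both arrays, and with Z-scores of 1.55 and 1.65 both missed the Z-score criterion. Tgfb3, an isoform known from palate closure and wound repair, gave 149 and 98.7, at least 1.49-fold lower (log2 difference -0.59). Tgfb1 ranked 550 and Tgfb2 ranked 483 from the highest among kept genes, and Tgfb3 ranked 2555 from the lowest.

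Inhba, which encodes the subunit of activin A, gave 27.8 (Control) and 39.7 (DMA-tumor). Grem1, which encodes gremlin, an antagonist of BMP2, BMP4 and BMP7, gave 29.0 and 27.0. No fold is given for these 2 genes because all their signals were below 100. Their log2 differences were 0.51 and -0.10. To gauge the scatter of weak signals, 1279 receptor genes of the nose (olfactory and vomeronasal), presumed silent in bladder, had log2 differences from -0.81 to 0.52 over their central 95%. That range covers scatter of weak signals between these 2 arrays only, not variation between animals or pools.

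**Figure D4:**
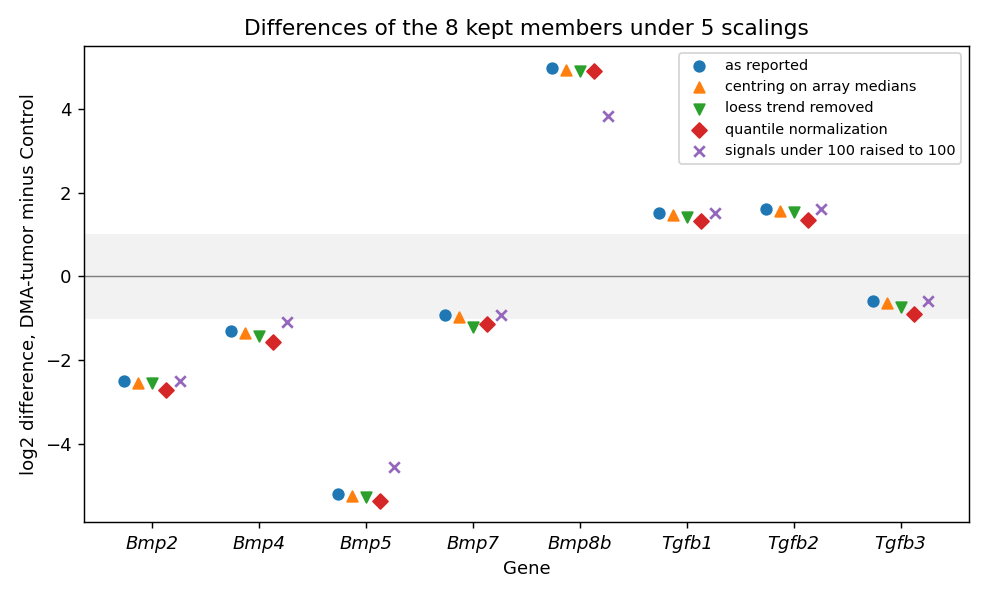
Log2 difference (DMA-tumor minus Control) of the 8 kept genes under 5 scalings of the same arrays, with the band of less than 2-fold difference in grey. No gene changes sign, Bmp7 crosses the 2-fold line under 2 scalings, and Bmp5 and Bmp8b move most when signals below 100 are raised to 100.

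Markers of several cell types differed between the pools, and several of these ligands are known to be made by stromal cells. Of 10 fibroblast markers, 10 were at least 2-fold lower in the tumors, their summed signal was 161263 (Control) and 1594 (DMA-tumor), and 5 of the 10 were below 100 there. Of 8 smooth muscle markers 7 were lower, with sums of 56870 and 4592 and 2 below 100 in the tumors. The Control array, labelled epithelium, thus held strong stromal signal, with Dcn at 57824 and Col1a1 at 35375. Of 10 urothelial markers 8 were lower, with sums of 2013482 and 713470. Of 8 basal and squamous markers 6 were measured, and 5 of these were higher, with sums of 19943 and 204305. Of 7 endothelial markers 2 were higher and 1 was lower (3233 and 3285), and of 6 leukocyte markers above 100 on 1 or both arrays 1 was higher and 3 were lower (sums of 3354 and 1780 over 9 measured). The part of these shifts in the values of Bmp2, Bmp4, Bmp5 and the other genes was not tested. In such bulk RNA, fewer cells of a type and less RNA per cell cannot be told apart.

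The rest of the pathway was read from lists by role, which held 110 genes, of which 106 had a probe set and 63 were kept. Of these 63, 15 (23.8%) were at least 2-fold higher and 15 (23.8%) at least 2-fold lower, beside 8.87% and 10.5% of all kept genes. The even split holds for the deposited scale, since 13 were higher and 18 lower under median centring, 10 and 18 under loess, and 10 and 19 under quantile normalization. Calls over all kept genes tilted the same way. There 8.24% were higher and 11.3% lower under median centring, 7.65% and 13.5% under loess, and 6.31% and 16.4% under quantile normalization. Of 23 other ligands measured, 18 were below 100 on both arrays, and 1 of the 5 kept differed by 2-fold, Gdf15, a ligand induced by cell stress, with signals of 66.4 and 214 (at least 2.14-fold higher). Bmp3 and Bmp6, looked up after their values were seen, stayed within 2-fold with log2 differences of 0.34 and -0.18.

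Few secreted antagonists reached a signal of 100. Of 14 measured genes besides Grem1, 10 were below 100 on both arrays, among them noggin (Nog) at 68.6 and 48.3 and chordin (Chrd) at 55.4 and 62.3. Of the 4 kept, 3 were at least 2-fold lower on the measured signals and 0 were higher, beside 10.5% and 8.87% of all kept genes. Nbl1, a relative of gremlin, gave 874 and 138, which was 6.35-fold lower. Twsg1, which binds BMPs together with chordin, gave 1120 and 338 (3.32-fold lower), and Chrdl1, a chordin-like protein, gave 157 and 54.7 (at least 1.57-fold lower). The median log2 difference of the 4 was -1.62, or -1.19 with signals below 100 raised to 100. Raised in that way, Chrdl1 stood at -0.65 and so within 2-fold.

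Genes that store and activate latent TGF-beta differed in both directions. Of 14 kept genes 7 were at least 2-fold higher and 5 at least 2-fold lower, with a median log2 difference of 0.29. The balance turned with the scaling, to 5 and 5 of 15 kept (median -0.55) under loess and to 4 and 6 of 15 (median -0.67) under quantile normalization. Over all kept genes, 7.65% were higher and 13.5% lower under loess, and 6.31% and 16.4% under quantile normalization. Among the higher ones, thrombospondin 1 (Thbs1), which can activate latent TGF-beta, gave 1945 and 28252 (14.5-fold higher). Ltbp1, which binds the latent complex to the matrix, gave 99.6 and 788 (at least 7.88-fold higher), and Itgav, the alpha chain of the integrins that release TGF-beta, gave 7486 and 25159 (3.36-fold higher). The lower genes were led by matrix proteins that the fibroblast list also holds or that fibroblasts make. Decorin (Dcn) gave 57824 and 126 (459-fold lower), biglycan (Bgn) 42415 and 1959 (21.6-fold lower), and fibrillin 1 (Fbn1) 423 and 87.3 (at least 4.23-fold lower).

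Most kept receptors and SMADs were within 2-fold, as were most of all kept genes, of which 8.87% were higher and 10.5% lower. Of 12 kept receptors and co-receptors 9 were within 2-fold, 8.33% were higher and 16.7% lower. Their median log2 difference was 0.17 (-0.26 over 13 kept under quantile normalization). Acvr1, a type I receptor for BMPs, gave 362 and 858 (2.37-fold higher). Acvrl1, a type I receptor of endothelium, gave 304 and 107 (2.83-fold lower), and the co-receptor Tgfbr3 gave 637 and 263 (2.42-fold lower). The BMP receptors Bmpr1a and Bmpr2 had log2 differences of -0.77 and -0.98, and Bmpr2 passed 2-fold lower under median centring, loess and quantile scaling (Bmpr1a under loess alone). The TGF-beta receptor Tgfbr1 stood at 0.31, and Tgfbr2 was not analysed here.

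Of 14 SMADs and regulators, all kept, 11 were within 2-fold, 14.3% were higher and 7.14% lower. Their median log2 difference was 0.31. Under median centring, loess and quantile normalization 1 was higher and 2 were lower, with medians of 0.26, 0.24 and 0.11. Smad9 was an added lower call under each of these. Over all kept genes the lower share was then 11.3%, 13.5% and 16.4%. Smad4, with 2969 and 3116, and the inhibitory Smad7, with 212 and 242, were near 0 (0.07 and 0.19), and their sign changed with the scaling. The co-repressor Tgif1 gave 657 and 1524 (2.32-fold higher) and the co-repressor Ski 2969 and 1339 (2.22-fold lower). The ubiquitin ligase Smurf1 gave 1276 and 2583 (2.02-fold higher), a difference that fell below 2-fold under median centring, loess and quantile scaling.

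Target genes were read last. Of 10 kept BMP target genes 1 was at least 2-fold higher and 3 at least 2-fold lower, with a median log2 difference of -0.71. Under median centring and quantile normalization 5 were lower and 1 was higher, and under loess 4 were lower and 0 were higher. Of all kept genes, 11.3% were lower under median centring, 16.4% under quantile normalization and 13.5% under loess, beside 10.5% on the deposited scale. The added lower calls under median centring and quantile normalization were Id4 and Smad9. Relative to the median of kept genes they stood at -0.87 and -0.89 (median centring) and -0.78 and -0.91 (quantile). The homeobox gene Msx2 gave 2233 and 774 (2.88-fold lower), the helix-loop-helix gene Atoh8 gave 331 and 124 (2.68-fold lower), and Id3, an inhibitor of differentiation factors, gave 540 and 213 (2.53-fold lower). Its relative Id1 gave 934 and 675 (log2 difference -0.47), while Id2 gave 6578 and 16495 (2.51-fold higher, within 2-fold under loess). The Id genes, which BMP signals induce in many cells, were thus found on both sides.

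Of 11 kept TGF-beta and activin target genes 4 were at least 2-fold higher and 1 at least 2-fold lower, with a median log2 difference of 0.49. Of all kept genes, 8.87% were higher and 10.5% lower. Under loess and quantile normalization 3 of the 11 were higher and 1 was lower, with medians of 0.29 and 0.28. Over all kept genes, 7.65% were then higher under loess and 6.31% under quantile normalization. Fibronectin (Fn1) gave 1183 and 34760 (29.4-fold higher) and the transcription factor gene Bhlhe40 gave 576 and 10590 (18.4-fold higher). The feedback gene Pmepa1 gave 5141 and 12091 (2.35-fold higher), which fell within 2-fold under loess and quantile scaling. Tgfbi, a matrix protein named for its induction by TGF-beta, went the other way, with 40873 and 557 (73.3-fold lower). Many of these targets also respond to other signals, and no list here was tested against other genes.

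**Figure D5:**
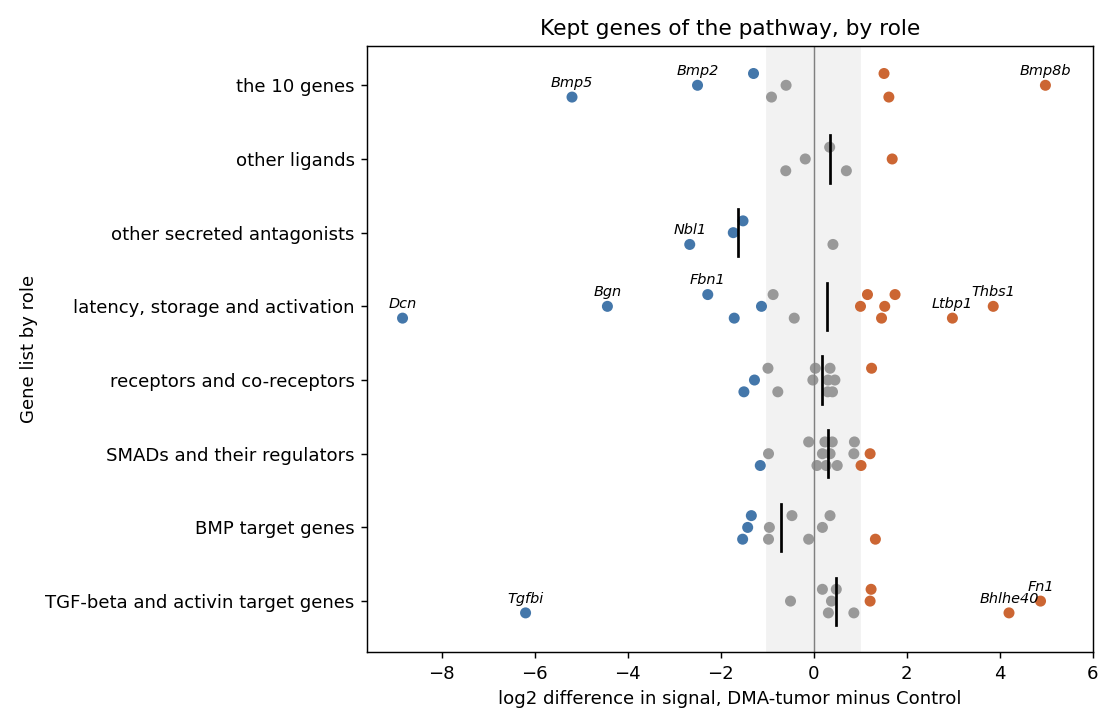
Log2 difference (DMA-tumor minus Control, measured signals) of every kept gene of the pathway, by role, with orange for at least 2-fold higher, blue for at least 2-fold lower, grey for less, and a black bar at the median of each list other than the 10 genes. Most receptors and SMADs lie within the grey 2-fold band, as do most of all kept genes. The kept ones of the 10 genes spread from -5.20 (Bmp5) to 4.98 (Bmp8b). Genes of latency, storage and activation spread from -8.84 (Dcn) to 3.86 (Thbs1), and TGF-beta and activin targets from -6.20 (Tgfbi) to 4.88 (Fn1).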

How the data were processed

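Both deposited columns held linear intensity values, 1 for each probe set, from 5.60 to 820532. Per the labels a whole-transcript kit was used. RMA, in Affymetrix Expression Console 1.4.1, stands in the processing notes of the submitters, whereas the methods of the study name a 3'-based array, global median normalization and removal of signals under 100. Which normalization was applied is unsettled. Of 68842 probe sets, 1062 (Control) and 1828 (DMA-tumor) exceed 65535, the maximum of a 16-bit scan, so folds hold for the deposited scale only. The median signals were 50.6 and 52.3.

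Log2 of each value was taken with no further normalization. Of the probe sets, 23446 had 1 gene symbol in the platform annotation (505 several, 44891 none listed), and for a gene with several the one with the highest mean was used. The Z-score was the difference minus the mean of kept genes, over their standard deviation (1.02). The calling step was tested on simulated data with planted shifts larger than the differences of all 10 genes except Bmp5 and Bmp8b. That checks the code and not the calls of smaller differences. Members and lists were chosen with earlier results of these data known. The genes named were the 10 members, up to 3 genes a pathway list in each direction among those 2-fold apart, and a few fixed genes (Tgfbr1, Tgfbr2, Bmpr1a, Bmpr2, Smad4, Smad7 and Id1, with another not reported here). Marker lists are given as counts and summed signals, with the 2 fibroblast markers of highest Control signal named. Alternatives were other filters, scalings, probe set rules and fold limits. A planned comparison of protein sequences was not made. Columns of other series numbered 0. Analyses ran in Python 3.11.15 with matplotlib 3.10.9, statsmodels 0.14.6, pandas 2.3.3 and numpy 2.4.6.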

Additional observations from a re-analysis of the deposited data

How the results depend on the processing

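Bmp8b, Tgfb1 and Tgfb2 stayed at least 2-fold higher and Bmp2, Bmp4 and Bmp5 at least 2-fold lower under median centring, loess and quantile normalization. Bmp4, Bmp5 and Bmp8b, the only ones of these with a signal below 100, also did so with signals raised to 100. Averaging of probe sets, no filter and a minimum of 32 could not change these calls. Each gene had 1 probe set, and a looser filter leaves its signals as they are. Over the scalings and probe set rules Bmp2 ranged from -2.72 to -2.50, Bmp4 from -1.56 to -1.08, Bmp5 from -5.35 to -4.54, Bmp7 from -1.20 to -0.91, Bmp8b from 3.84 to 4.98, Tgfb1 from 1.32 to 1.51, Tgfb2 from 1.35 to 1.62 and Tgfb3 from -0.89 to -0.58. A signal of at least 100 required on both arrays removes Bmp4, Bmp5, Bmp8b and Tgfb3. With that filter 1 gene (Bmp2) was lower, 2 (Tgfb1 and Tgfb2) were higher, and 1 (Bmp2) passed ratio and Z-score. Of all genes left by that filter, 8.83% were lower and 7.06% higher. With no filter, which adds low genes of small difference to the Z-score, 5 passed both (Tgfb1 and Tgfb2 besides the 3). At a ratio of 1.5, 5 were lower (Bmp7 and Tgfb3 besides), beside 21.5% of all kept genes. At a ratio of 4, 1 was higher (Bmp8b) and 2 were lower (Bmp2 and Bmp5), beside 2.48% and 2.61% of kept genes. Loess and quantile normalization moved the median of kept genes by -0.12 and -0.27, and the higher share of all 2-fold calls from 45.7% to 36.1% and 27.8%. Relative to the quantile median Bmp7 stood at -0.80. No paired analysis was possible because each group had 1 array. Signals below 100 limit the folds of Bmp4, Bmp5, Bmp8b and Tgfb3 to lower bounds, and leave Inhba and Grem1 without one.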
